A study of Mus musculus with 9 samples.

Results

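The nuclei described here are epicardial nuclei, found among nuclei of mouse ventricles by the RNA of 9 genes that mark the outer covering of the heart. A barcode was taken as an epicardial nucleus when it held at least 500 UMIs (unique molecular identifiers, each counting 1 captured RNA molecule) outside mitochondrial genes, at least 1.5% of them from the nuclear RNA Malat1, at least 2 UMIs summed over Wt1, Upk3b, Upk1b, Msln, Lrrn4, Muc16, Krt19, Rspo1 and Bnc1, and at most 2 UMIs summed over the endothelial and endocardial genes Flt1, Kdr, Nrg1 and Ptprb. Of 33000 barcodes in 9 libraries, 21770 passed the depth and Malat1 limits, and 166 of these were epicardial nuclei. A further 43 nuclei had at least 2 UMIs of the 9 genes but were left out for their endothelial UMIs. The choice used measured RNA, so the levels of the 9 genes are given as a description, with no test.

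The libraries were made by Drop-seq, a droplet method that tags the RNA of single nuclei, from ventricles of C57BL6/J mice, 3 libraries per group. Control mice at postnatal day 6 (control P6) and at postnatal days 9 to 10 (control P10) carried 1 intact and 1 disrupted allele of ERRα and were wild type for ERRγ (ERRalphaHet/ERRgammaWT), so the controls also lacked 1 copy of ERRα. The knockouts (KO P10) were ERRalphaKO/ERRgammaKO, at the age of the control P10 mice. ERRα and ERRγ are nuclear receptors that drive mitochondrial and contractile genes of the maturing heart. The labels do not say in which cells ERRγ was removed, whether each library stands for its own animal, or which libraries came from fresh and which from flash-frozen ventricles, so p-values measure the spread between libraries.

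The epicardium is a single sheet of mesothelial cells on the surface of the heart. In the embryo part of it undergoes epithelial-mesenchymal transition, guided by transcription factors such as Wt1, Tbx18 and Tcf21, and gives rise to cardiac fibroblasts and to the mural cells of coronary vessels. It also secretes growth factors and retinoic acid that act on the muscle beneath. The cells that remain on the surface keep features shared by mesothelia of all body cavities, such as mesothelin, uroplakins, mucin and keratins.

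The libraries held 2608067 to 5769630 UMIs. The epicardial nuclei had a median of 870 UMIs and 618 genes, close to the 872 UMIs of all qualifying nuclei, and 218904 UMIs in all. By library they numbered 16, 23 and 28 in the P6 controls, 4, 49 and 11 in the P10 controls, and 6, 15 and 14 in the knockouts. Their summed UMIs ranged from 3499 in control P10 library 1 to 60531 in control P10 library 2, so the value of 1 UMI differed widely between libraries. Single deep nuclei weighed heavily in some sums: 1 nucleus of 7507 UMIs gave 58.4% of the sum of KO P10 library 1, and 1 of 11149 UMIs gave 47.9% of that of KO P10 library 3. In KO P10 library 2, 465 barcodes were shared with KO P10 library 1 and left out, and none of these met the rest of the rule. Of the 166 nuclei, 9 were candidate doublets and 2 carried a barcode seen in another library too.

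Msln, on chromosome 17 (17:25748613-25754378, mm10, protein coding), encodes the mesothelial surface protein mesothelin and gave the most UMIs of the 9 genes, 251 in 57.8% of the epicardial nuclei. Upk3b (5:136038496-136046487), a uroplakin of mesothelial membranes, gave 137 UMIs in 41.6% of the nuclei, and the related Upk1b gave 67. The mucin gene Muc16 (9:18495455-18674530) gave 102 UMIs, the transcription factor gene Wt1 (2:105126529-105173616) 81, and Lrrn4 (2:132868305-132880891), a leucine-rich repeat membrane protein of mesothelium, 77. Rspo1, which encodes a Wnt signal enhancer, gave 41, the keratin gene Krt19 gave 30 and the zinc finger gene Bnc1 gave 11. The 166 nuclei held 70.7% of all Msln UMIs of the qualifying nuclei, 70.6% of those of Lrrn4 and 60.6% of those of Upk3b, but 17.6% of those of Wt1, whose RNA was thus mostly outside the rule's nuclei. In 34 nuclei the rule was met by 1 gene alone, and 132 nuclei held UMIs of at least 2 of the 9 genes. The median was 3 UMIs over the 9 genes and the maximum was 22.

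To see whether the 9 genes occurred in the same nuclei, nuclei were chosen with 8 of them and the level of the gene left out was read. Levels are UMIs per 10000 UMIs outside mitochondrial genes, summed over nuclei. Msln stood at 12.0 in nuclei chosen by the other 8 genes and at 0.0416 in nuclei with no UMI of those genes. Upk3b stood at 5.78 against 0.0325, and was the higher in all 9 libraries. The other 7 genes likewise had a higher pooled level in nuclei chosen without them, from 0.412 against 0.00826 for Bnc1 to 3.64 against 0.0334 for Muc16, in 5 to 8 of the 9 libraries. The 9 genes therefore marked a common set of nuclei, although most of these nuclei showed only a few of them at this depth.

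The bases before the start sites of 3 genes found mainly in these nuclei are shown because the set shares their RNA and because TEAD factors, which act in the Hippo pathway known from epicardial work, read a short core in such regions. The sequences are 250 bases upstream of the RefSeq start (GRCm38.p6), 5′ to 3′ on the gene's strand, with the TEAD core GGAATG or its reverse complement CATTCC in capitals. The Upk3b sequence is chr5:136038246-136038495 on the plus strand, that of Lrrn4 is chr2:132880863-132881112 on the minus strand, and that of C3, described below, is chr17:57228137-57228386 on the minus strand.
Upk3b: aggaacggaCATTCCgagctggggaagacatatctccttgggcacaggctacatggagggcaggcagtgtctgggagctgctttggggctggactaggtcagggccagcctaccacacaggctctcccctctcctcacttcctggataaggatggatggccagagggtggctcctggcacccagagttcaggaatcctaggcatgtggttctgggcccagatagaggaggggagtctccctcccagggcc
Lrrn4: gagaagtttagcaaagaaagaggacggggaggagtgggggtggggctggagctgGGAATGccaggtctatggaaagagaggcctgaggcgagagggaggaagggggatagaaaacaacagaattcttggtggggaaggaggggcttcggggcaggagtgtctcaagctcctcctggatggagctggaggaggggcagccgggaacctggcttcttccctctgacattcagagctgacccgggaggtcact
C3: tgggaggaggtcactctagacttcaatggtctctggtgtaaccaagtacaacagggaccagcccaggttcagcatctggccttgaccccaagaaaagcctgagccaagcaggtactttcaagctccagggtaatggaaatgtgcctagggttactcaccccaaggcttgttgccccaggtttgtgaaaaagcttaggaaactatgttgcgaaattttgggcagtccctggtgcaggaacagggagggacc
The core lies 241 bases before the Upk3b start and 196 bases before the Lrrn4 start, and the C3 window holds none. RefSeq sequences were found for 5 of the 9 rule genes, and 2 of these held the core on either strand, against 12.6% of all 32851 mouse promoters of this length. The 2 are Upk3b and Lrrn4, printed here, while Muc16, Rspo1 and Bnc1 held none. The motif TGANTCA, read by AP-1, was found in none of the 5, as was GCGTGGG, read by WT1 and EGR1. Among the genes tested below, the core was in 8.89% of windows of higher genes, 19.9% of lower genes and 11.1% of all genes tested. A match describes the letters only, and binding was not measured.

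**Figure D1:**
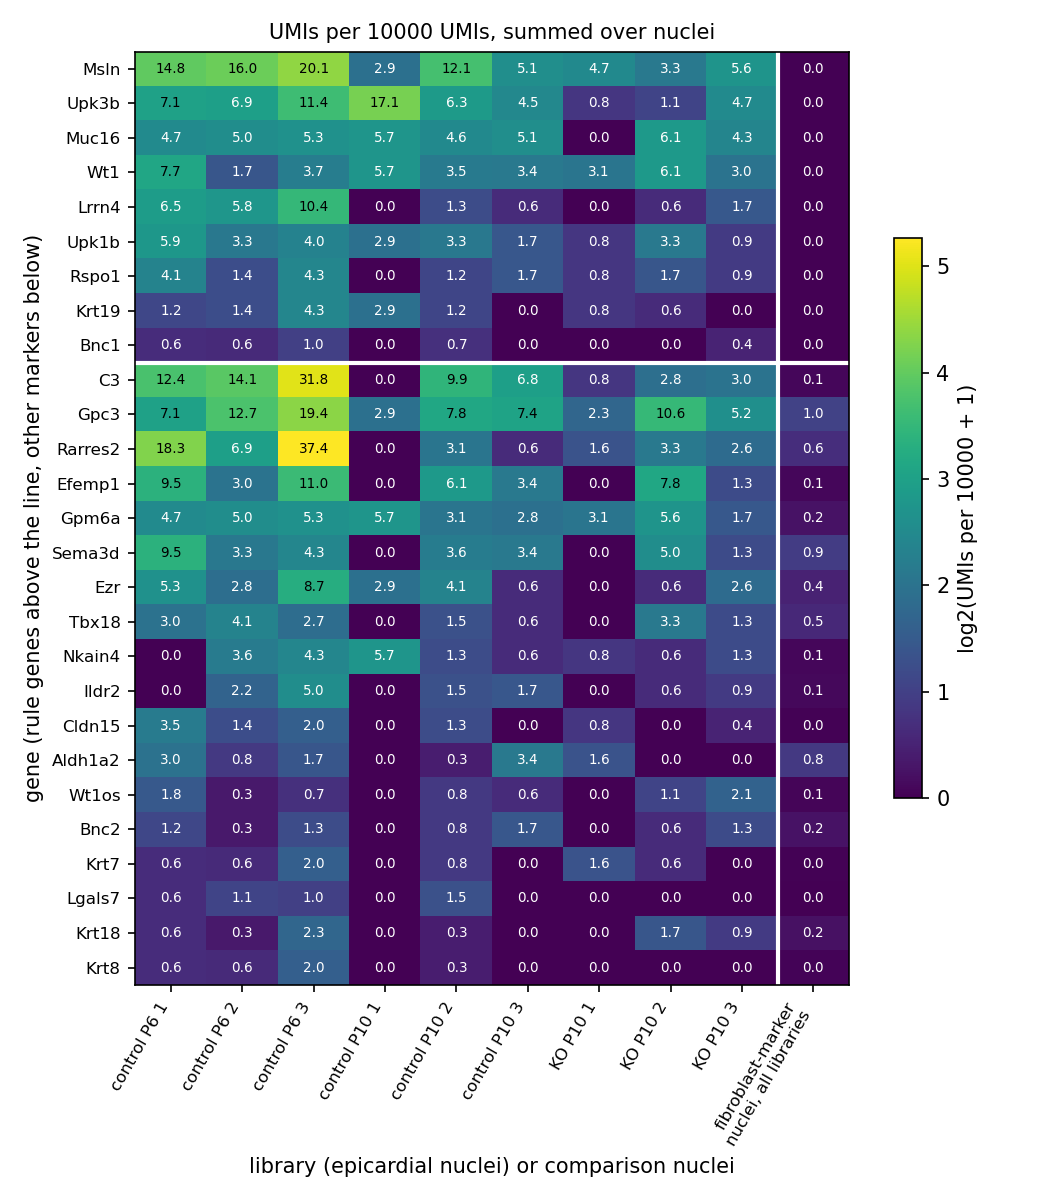
Levels of the rule genes (above the white line) and of epicardial markers outside the rule (below it) in UMIs per 10000 UMIs, with 1 column per library for epicardial nuclei and a last column for fibroblast-marker nuclei of all libraries. Colour shows log2 of the level plus 1; C3 and Rarres2 are highest in control P6 library 3, at 31.8 and 37.4, several markers are at 0 in control P10 library 1, and all are at or below 1.05 in the last column.

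The rule genes varied across libraries. Msln stood at 14.8, 16.0 and 20.1 UMIs per 10000 in the P6 control libraries, at 2.86, 12.1 and 5.09 in the P10 control libraries, and at 4.66, 3.34 and 5.59 in the knockout libraries. Its control P6 levels were all above those of the other 6 libraries. Upk3b stood at 7.09, 6.89 and 11.4 in the P6 controls, 17.1, 6.28 and 4.53 in the P10 controls, and 0.777, 1.11 and 4.73 in the knockouts, with overlap between the groups at P10. Lrrn4 gave 11, 21 and 31 UMIs in the P6 controls, 0, 8 and 1 in the P10 controls, and 0, 1 and 4 in the knockouts. Wt1 did not follow this order: its pooled level was 3.61 in the P6 controls, 3.55 in the P10 controls and 4.07 in the knockouts.

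How firmly the rule marked a nucleus also differed between groups. Nuclei at the limit, with exactly 2 UMIs over the 9 genes, made up 25.4% of the epicardial nuclei in the P6 controls, 34.4% in the P10 controls and 57.1% in the knockouts. Nuclei with 5 or more made up 56.7%, 31.3% and 8.57%. Just outside the limit lay 525 nuclei with exactly 1 UMI over the 9 genes, and just inside it 59 with exactly 2. On the endothelial side, 15 epicardial nuclei held exactly 2 UMIs of the 4 endothelial genes, and 11 nuclei with exactly 3 were left out.

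Markers of epicardium and mesothelium that the rule did not use separated these strata. The 27 such markers made up 0.0482% of UMIs in nuclei without a UMI of the rule genes, 0.0659% in nuclei with 1, 0.187% with 2, 0.474% with 3 or 4, and 1.33% with 5 or more. C3, the central complement component, which mesothelial cells produce, stood in the same strata at 0.0496, 0.289, 2.21, 8.66 and 26.8 UMIs per 10000. Ttn, the giant spring protein of the cardiomyocyte sarcomere, was lower in the upper strata, at 123, 109, 117, 65.1 and 26.1. The nuclei at the limit of the rule thus carried more epicardial marker RNA than nuclei outside it, but with Ttn at the level of the other nuclei. RNA of lysed cells that enters droplets reaches all nuclei, and its part in the nuclei at the limit was not tested.

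**Figure D2:**
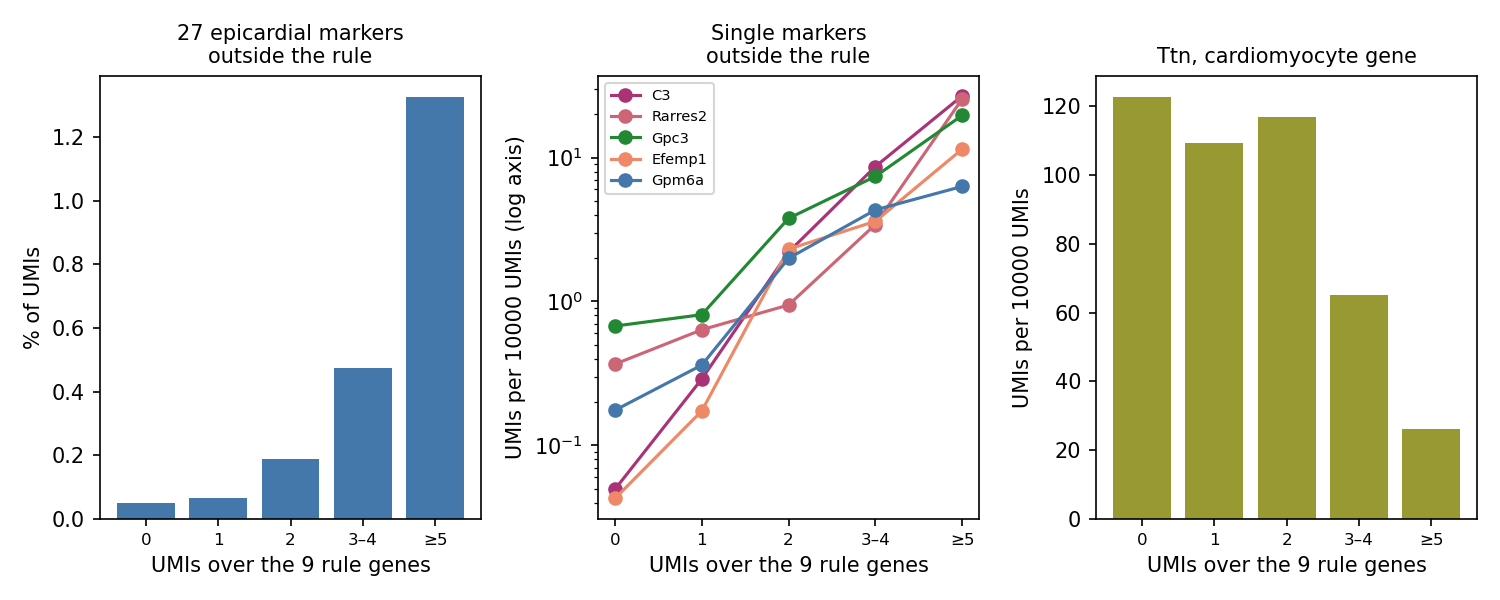
Nuclei grouped by their UMIs over the 9 rule genes (0, 1, 2, 3 or 4, 5 or more). The left panel gives the 27 markers outside the rule as a percentage of UMIs, the middle panel single markers in UMIs per 10000 on a log axis, and the right panel Ttn in UMIs per 10000; the outside markers reach 1.33% and Ttn its lowest level, 26.1, in nuclei with 5 or more.

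Over the 166 nuclei, 25 of the 27 outside markers had at least 1 UMI, and Pdpn and Calml4 had none. The 27 made up 0.615% of UMIs, and 75.9% of the nuclei held at least 2 UMIs of them. For comparison, 9203 fibroblast-marker nuclei were taken, which held at least 3 UMIs over Pdgfra, Col1a1, Col1a2, Col3a1, Dcn, Lum and Dpt and none over the 9 epicardial genes, with the same limits otherwise and a median of 845 UMIs. In these the 27 markers made up 0.0705% of UMIs, and 18.5% of nuclei held at least 2. C3 was seen in 41.0% of epicardial nuclei and in 0.608% of fibroblast-marker nuclei, and Efemp1, which encodes the matrix protein fibulin-3, in 38.0% against 0.674%. The label therefore held for the set as a whole by markers that played no part in its choice, although its strength differed between groups. Pooled by group, the 27 markers stood at 97.7 UMIs per 10000 in the P6 controls, 45.2 in the P10 controls and 30.7 in the knockouts. The knockout libraries stood at 13.2, 46.8 and 27.9.

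The nuclei were not purely mesothelial in their RNA. Of the 166, 143 held at least 3 UMIs of the 7 fibroblast-marker genes, and the 10 fibroblast markers made up 1.43% of UMIs, against 1.29% in fibroblast-marker nuclei and 0.680% in all qualifying nuclei. The 10 cardiomyocyte markers made up 3.06% of UMIs against 3.76% in fibroblast-marker nuclei, and were present in nearly every nucleus of either kind. Among the epicardial nuclei these ranged from 0.809% to 2.69% of UMIs over the P6 control libraries, from 3.04% to 3.57% over control P10 and from 3.96% to 5.96% over KO P10, so the groups did not overlap. Erythroid genes made up 0.448% against 0.443%. Endothelial markers made up 0.114% against 0.117%, pericyte markers 0.0466% against 0.0696%, and macrophage markers 0.0238% against 0.0190%. Endocardial markers were the exception at 0.0717% against 0.0226%. The difference lay in Npr3 and Tmem108, while the endocardial genes Nfatc1, Plvap, Cytl1 and Gja5 gave 1, 3, 5 and 2 UMIs in all.

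Epicardial and fibroblast-marker nuclei were compared within libraries, since fibroblasts are the cell type nearest to the epicardium by descent. Pkhd1l1, Cdh3, Gpm6a, Gpc3 and Slit3 were higher in epicardial nuclei, the transcription factor gene Tcf21 and 10 of 29 tested matrix genes were lower, and the lists of adhesion and guidance genes held calls in both directions. UMI counts were summed per library and class and fitted with edgeR's quasi-likelihood test with the library as a block and Benjamini-Hochberg adjustment, leaving out all genes used to choose either class. Of 4555 genes tested, 88 were higher (1.93%) and 131 lower (2.88%) in epicardial nuclei at an adjusted p under 0.05, 4.81% in all. The median log2 difference over all genes tested was -0.22, and with another scaling, RLE factors, which moved it up by 0.18, 127 genes were higher and 78 lower. The split between the directions thus depended on the scaling, and single genes of this fit of 4555 named below are called in the same direction under both unless stated otherwise.

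Of the 27 outside markers, 8 passed the filter on low counts, of which 6 were higher and 1, Tcf21, lower, with a median log2 difference of 2.14. The filter keeps a gene for its level in either class, so these counts are descriptive. A gene too low in fibroblast-marker nuclei entered only if its level sufficed in all 9 epicardial sums. Gpm6a (8:54954843-55060871), a membrane glycoprotein of neurons and epicardium, had levels of 4.73, 4.96 and 5.35 UMIs per 10000 in epicardial nuclei of the P6 control libraries, 5.72, 3.14 and 2.83 in the P10 controls and 3.11, 5.57 and 1.72 in the knockouts, and of 0.0234 to 0.358 in fibroblast-marker nuclei. Every epicardial value lay above every fibroblast-marker value, but Gpm6a entered the test in this way, so the filter fixed that separation. The log2 difference was 4.37 ± 0.31 (SE), a 20.7-fold higher level (edgeR adjusted p = 2.24e-41). Gpc3 (X:52272426-52613950), a heparan sulfate proteoglycan of the cell surface, stood at 7.09, 12.7 and 19.4, then 2.86, 7.76 and 7.36, then 2.33, 10.6 and 5.16 in the 3 groups in that order, against 0.760 to 1.73 in fibroblast-marker nuclei. Again no values overlapped, and the log2 difference was 2.63 ± 0.25 (edgeR adjusted p = 2.83e-22). The other markers that were higher were Rarres2, which encodes the secreted attractant chemerin (log2 difference 2.90 ± 0.29), Ezr, the membrane linker ezrin (2.75 ± 0.32), the guidance factor gene Sema3d (1.66 ± 0.28) and the transcription factor gene Tbx18 (1.52 ± 0.34). Sema3d, Ezr and Tbx18 were higher in 7 of 9 libraries and Rarres2 in 8.

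Many mesothelial markers did not pass that filter, some for want of UMIs in single epicardial sums. C3 was one of these, with 252 UMIs in epicardial nuclei but none in control P10 library 1. Such markers were tested when genes with at least 20 UMIs in all were kept. In this set of 15699 genes, 1.34% were higher and 6.6% lower. Of the 27 outside markers 25 were tested in it, of which 18 were higher, Tcf21 was lower and 6 were not called. These 6 were Aldh1a1, Aldh1a2, Podxl, Tmem255a, Prr15 and Calml4. In that fit C3 (17:57203970-57228136) was 6.08 log2 units higher (edgeR adjusted p = 7.69e-60). Its epicardial levels were 12.4, 14.1 and 31.8 UMIs per 10000 in the P6 controls, 0, 9.91 and 6.79 in the P10 controls, and 0.777, 2.79 and 3.01 in the knockouts, while fibroblast-marker nuclei had 0.0133 to 0.0982. All libraries but control P10 library 1, with 4 epicardial nuclei and no C3 UMI, lay above the fibroblast-marker range. Efemp1 was 5.47 log2 units higher, the keratin genes Krt7, Krt8 and Krt18 4.66, 3.32 and 1.76, the tight junction gene Cldn15 4.54, Lgals7 4.70, Nkain4 3.83, Wt1os, a transcript from the Wt1 locus read against it, 3.54, Ildr2 3.42, Dmkn 2.73 and Bnc2 1.64. Reads of Wt1os and Wt1 cannot be told apart where the counting did not use strand, which is not given in the sources used here. Il18r1 (1:40465552-40500854), a chain of the receptor for interleukin-18, was 6.37 log2 units higher, the insulin-like growth factor binding gene Igfbp6 3.95 and the small proteoglycan gene Fmod 3.98, and these 3 genes were chosen after their values were seen. Il18r1 was seen in 31.9% of epicardial nuclei and in 0.380% of fibroblast-marker nuclei.

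**Figure D3:**
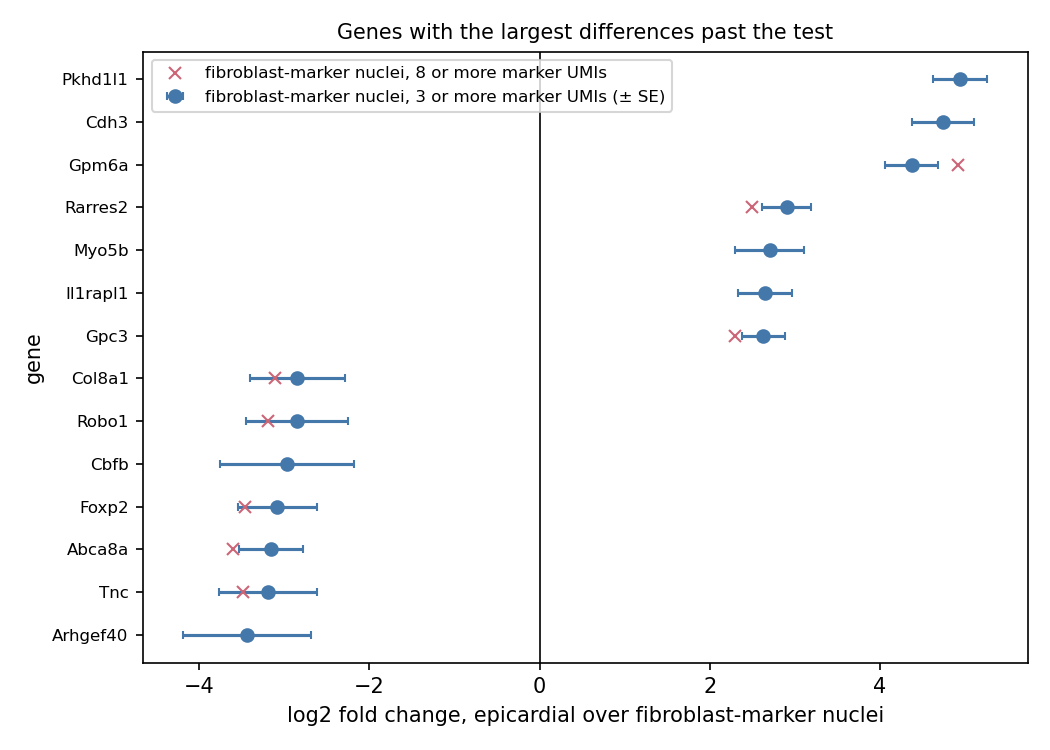
Log2 fold change between epicardial and fibroblast-marker nuclei for the 7 named genes with the largest differences in each direction among the 4555 genes tested, with SE over the library-blocked fit (circles), and the same against fibroblast-marker nuclei with at least 8 marker UMIs (crosses, where tested). Pkhd1l1, Cdh3 and Gpm6a stand farthest to the right, at 4.94, 4.74 and 4.37.

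Among the genes that no marker list held, Pkhd1l1 (15:44457494-44601369), a large membrane protein related to fibrocystin, showed the largest difference of the named genes among the 4555 tested. Its epicardial levels were 5.32, 1.38 and 9.03 UMIs per 10000 in the P6 controls, 2.86, 3.80 and 7.36 in the P10 controls, and 0.777, 5.57 and 1.72 in the knockouts, against 0.0468 to 0.191 in fibroblast-marker nuclei. Pkhd1l1 too entered the test only through the epicardial sums, so the filter fixed the lack of overlap. The log2 difference was 4.94 ± 0.32, a 30.7-fold higher level (edgeR adjusted p = 2.04e-50), and Pkhd1l1 was seen in 34.9% of epicardial nuclei. Igfbp5, a secreted binding protein of insulin-like growth factors, was 2.56 ± 0.26 log2 units higher, the motor gene Myo5b 2.70 ± 0.40, the phosphatase gene Ptpn13 2.30 ± 0.33, and Il1rapl1 and Rbfox1, both known from neurons, 2.65 ± 0.31 and 2.38 ± 0.25. Being higher in at least 8 of 9 libraries was a condition for naming these 5 genes, so that count adds no support.

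The adhesion genes that could be tested held calls in both directions. Of 34 adhesion, polarity and keratin genes, 18 were tested, of which Cdh3, Cdh11, Ezr and Gpm6a were higher and Cdh2 and Itga8 lower, with a median log2 difference of -0.09. P-cadherin, encoded by Cdh3 (8:106510891-106557297), stood at 1.18, 4.13 and 1.67 UMIs per 10000 in the P6 controls, 8.57, 1.98 and 0.566 in the P10 controls, and 0.777, 1.11 and 2.15 in the knockouts. Fibroblast-marker nuclei had 0.0103 to 0.146, and the log2 difference was 4.74 ± 0.37 (edgeR adjusted p = 2.73e-35). Cdh3 likewise passed the filter only through the epicardial sums. Cdh11, a mesenchymal cadherin, was 1.69 ± 0.25 higher in 9 of 9 libraries. Cdh2, which cardiomyocytes use at their junctions, differed by -0.90 ± 0.28 (edgeR adjusted p = 0.0349), but by -0.66 with RLE factors (edgeR adjusted p = 0.194) and by -0.11 against nuclei with at least 8 fibroblast-marker UMIs (edgeR adjusted p = 0.912). Itga8, an integrin of mesenchyme, also lost its call with RLE factors, at -1.59 (edgeR adjusted p = 0.109), and with both gone no gene of the list was lower.

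Guidance and growth factor genes divided between the classes. Of 19 tested genes for secreted growth and guidance factors, Slit3, Sema3d and Pdgfd were higher and Slit2, Ptn, Igf2 and Fstl1 lower. The call for Pdgfd was lost in 14 of 26 alternatives. Slit3 (11:35121224-35708507) stood at 12.99, 9.37 and 7.35 UMIs per 10000 in the P6 controls, 0, 13.1 and 10.8 in the P10 controls, and 3.89, 14.5 and 6.88 in the knockouts, against 0.800 to 2.68 in fibroblast-marker nuclei. All libraries but control P10 library 1 lay above that range, and the log2 difference was 2.53 ± 0.25 (edgeR adjusted p = 1.8e-21). Slit2, another ligand of the Robo receptors, differed in the opposite direction, by -1.58 ± 0.39. The receptors showed a like division among 25 tested genes. Plxna4, a semaphorin coreceptor, was the only one higher, by 2.54 ± 0.25, and Robo1, Robo2, Fgfr1 and Notch3 were lower, by -2.85 ± 0.60, -2.55 ± 0.52, -1.37 ± 0.41 and -1.54 ± 0.48. The calls for Fgfr1 and Notch3 were not kept with RLE factors (edgeR adjusted p = 0.0675 and 0.0776).

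Transcription factor genes of the epicardium and of epithelial-mesenchymal transition were mostly lower where they differed. Of 13 tested, Tbx18 was higher and Tcf21, Tbx20, Zeb1 and Zeb2 were lower. Tcf21, which directs epicardial cells to the fibroblast fate, gave 9 UMIs in the 166 nuclei, in 4.82% of them against 9.00% of fibroblast-marker nuclei, and differed by -1.85 ± 0.48 (edgeR adjusted p = 0.00497). Zeb1 and Zeb2, repressors of epithelial genes, differed by -1.63 ± 0.28 and -1.29 ± 0.29, and the T-box gene Tbx20 by -1.97 ± 0.29. Foxp2, a forkhead factor outside the list, differed by -3.08 ± 0.46 and was lower in 9 of 9 libraries, where naming it required at least 8. With RLE factors the list counted 3 higher and 4 lower.

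Matrix genes formed the list with the most lower calls. Of 29 tested, 10 were lower and none higher, with a median log2 difference of -0.79, and with RLE factors 9 were lower and 2 higher. These counts leave out matrix genes that did not pass the filter, such as Efemp1 and Fmod, given above as higher. Postn, which encodes periostin of activated fibroblasts, stood at 2.36, 10.5 and 2.01 UMIs per 10000 in the P6 controls, 22.9, 4.96 and 4.53 in the P10 controls, and 10.9, 0.557 and 2.58 in the knockouts, and at 7.75 to 25.8 in fibroblast-marker nuclei. The ranges overlapped, and within libraries Postn was lower in 8 of 9, by -1.92 ± 0.28 (edgeR adjusted p = 1.52e-09). Tnc, for tenascin C, differed by -3.19 ± 0.58, Col8a1 by -2.85 ± 0.56, the laminin gene Lama2 by -1.86 ± 0.28, the versican gene Vcan by -1.70 ± 0.35 and the fibrillin gene Fbn1 by -1.49 ± 0.29. The remaining lower members were Lamb1, Col15a1, Nid1 and Fbn2, of which Fbn2 lost its call with RLE factors (edgeR adjusted p = 0.195). The fibrillar collagen genes Col1a1, Col1a2 and Col3a1 chose the comparison nuclei and were not tested here. Against nuclei with at least 8 fibroblast-marker UMIs, 1 matrix gene was higher and 18 of 27 tested were lower, beside 2.86% higher and 6.54% lower over all 2659 genes tested.

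Other lower genes included Abca8a, a lipid transporter of mesenchyme, at -3.16 ± 0.37 and in 9 of 9 libraries, where naming it required at least 8. Also lower were the protease gene Adamts19 at -2.57 ± 0.48, the guanylate cyclase subunit gene Gucy1b3 at -2.49 ± 0.63, and Arhgef40, Cbfb and Arfgap3. The call for Arfgap3 was not kept with RLE factors (edgeR adjusted p = 0.0592). Imprinted and fetal growth genes went both ways among 14 tested. The cyclin-dependent kinase inhibitor gene Cdkn1c and the RNA-binding protein gene Igf2bp2 were higher, by 1.40 ± 0.32 and 1.32 ± 0.40. Mgp, an inhibitor of calcification made by fibroblasts, differed by 0.79 ± 0.26 (edgeR adjusted p = 0.0458), a call lost in 17 of 26 alternatives. Higher too were the endocardial markers Npr3, a natriuretic peptide receptor (1.47 ± 0.35), and Tmem108 (2.07 ± 0.28). Igf2, a growth factor that signals to the myocardium, H19 from the same locus and the antisense RNA Airn were lower, by -1.16 ± 0.29, -1.09 ± 0.30 and -0.78 ± 0.25, and the call for Airn was not kept with RLE factors (edgeR adjusted p = 0.206). The immediate early gene Egr1, at -1.42 ± 0.47, likewise lost its call (edgeR adjusted p = 0.149). Ryr2, the cardiomyocyte calcium release channel, differed by -0.94 ± 0.26, but by -0.69 with RLE factors (edgeR adjusted p = 0.0592) and by -0.00 against nuclei with at least 8 fibroblast-marker UMIs (edgeR adjusted p = 0.996). The other 9 cardiomyocyte markers tested were not called. With epicardial nuclei of at least 3 rule UMIs, 9 of the 10 were lower, with a median log2 difference of -1.27. In that setting 3 of 6 endothelial and 2 of 4 pericyte markers were lower too. Over all 4000 genes tested in it 419 were lower. The median over these was -0.54, itself below the -0.22 of the main fit.

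Several lists with a textbook link to the epicardium held no called gene in this comparison. Retinoic acid genes had 4 tested members and none called, and Aldh1a2, the retinoic acid synthesis enzyme of the embryonic epicardium, differed by -0.02 (edgeR adjusted p = 0.989), and by -0.47 with the filter of 20 UMIs (edgeR adjusted p = 0.423). It gave 23 UMIs, in 9.64% of epicardial nuclei against 7.46% of fibroblast-marker nuclei. Hippo pathway genes (15 tested), cell cycle genes (14), ERR and mitochondrial energy genes (47), ribosomal protein genes (48) and complement and inflammation genes (9) also held none. Over all 4555 genes tested 4.81% were called, a share at which short lists may hold no call. With at least 3 rule UMIs, 6 of 45 ERR and mitochondrial genes and 2 of 12 Hippo genes were lower. In that setting 2 of 9 complement and inflammation genes were higher. Over all its 4000 genes tested 419 were lower and 86 higher, with a median log2 difference of -0.54. The lower counts are therefore not read as a trait of these lists. Against nuclei with at least 8 fibroblast-marker UMIs 1 of 9 Hippo genes was lower, beside 6.54% lower over all 2659 genes tested. With RLE factors Serping1, an inhibitor of complement, was among the higher genes of the complement and inflammation list. C3 belongs to that list but did not pass the filter here. With the filter of 20 UMIs it was 6.08 log2 units higher (edgeR adjusted p = 7.69e-60). At the depth of 166 nuclei, these counts do not show that the lists were alike in the classes. In promoter windows of the kind printed above, the TEAD core was found in 8.89% of 90 windows of higher genes, 19.9% of 151 windows of lower genes and 11.1% of 4713 windows of all genes tested.

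The share of epicardial nuclei did not differ between the control ages, or between the knockouts and the P10 controls, beyond the spread between libraries. It was 0.891%, 0.980% and 1.26% of qualifying nuclei in the P6 control libraries, 0.260%, 1.42% and 0.322% in the P10 control libraries, and 0.315%, 0.585% and 0.556% in the knockout libraries. The P6 controls all lay above the knockouts, a difference of both age and genotype that was not tested. The exact Clopper-Pearson 95% intervals, which cover counting error only, were 0.0709% to 0.664% for control P10 library 1 and 1.05% to 1.87% for library 2, so these libraries of 1 group differed beyond counting error. The means were 1.04% ± 0.194, 0.666% ± 0.650 and 0.485% ± 0.148 (SD, n = 3). Control P10 was 0.379 percentage points lower than control P6 (two-sided exact permutation test, p = 0.4) and KO P10 0.180 points lower than control P10 (p = 0.9, same exact test), in a design whose smallest possible p is 0.1. Without control P10 library 2 the first difference was -0.753 points (exact permutation p = 0.1), and the second turned to 0.195 points higher in KO P10 (exact permutation p = 0.3). With each nucleus thinned to 500 UMIs the shares were 0.772% ± 0.236, 0.406% ± 0.435 and 0.275% ± 0.134 (SD, n = 3). A share of captured nuclei depends on how nuclei were released from the surface sheet, which was not measured.

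**Figure D4:**
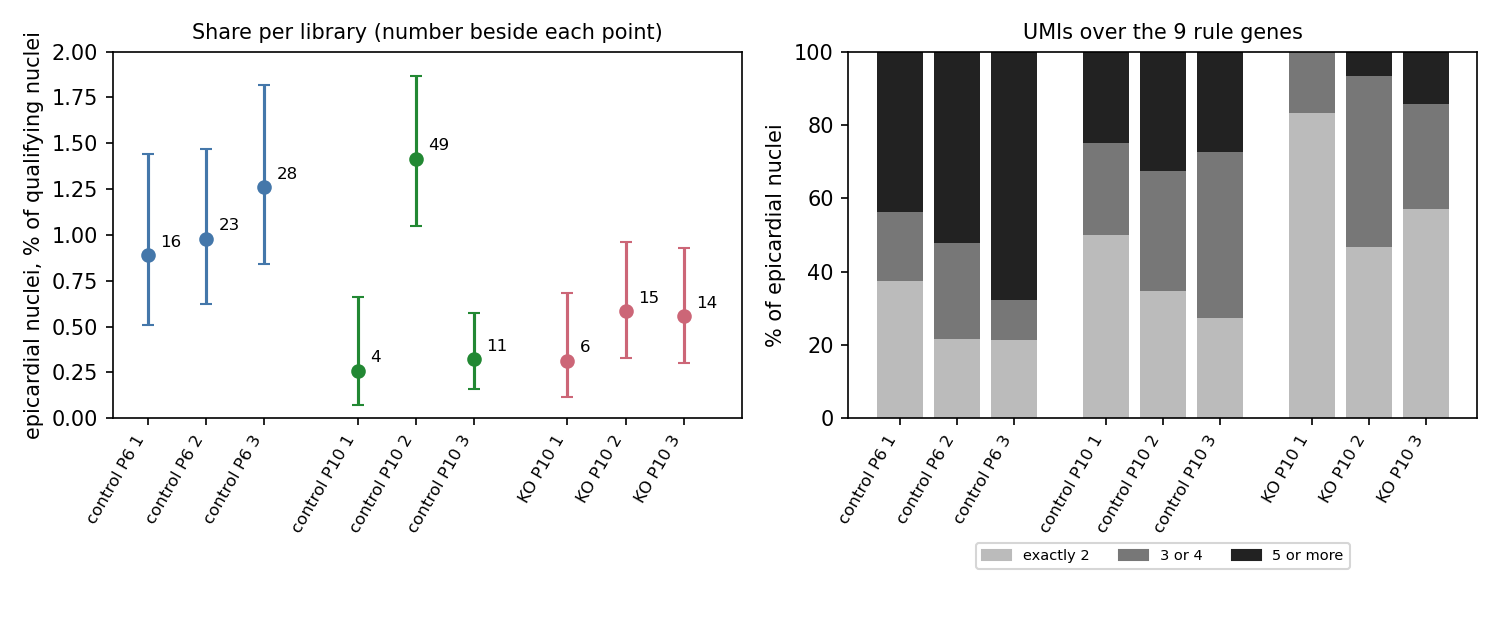
Left, epicardial nuclei as a percentage of qualifying nuclei in each library, with exact 95% intervals and the number of nuclei beside each point; control P10 library 2 stands at 1.42% and the other control P10 libraries at 0.260% and 0.322%. Right, the epicardial nuclei of each library by UMIs over the 9 rule genes, as stacked percentages; KO P10 libraries have the fewest with 5 or more.

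Between P6 and P10, Rarres2 was the only gene that edgeR called in epicardial nuclei. Rarres2 (6:48569696-48572789) stood at 18.3, 6.89 and 37.4 UMIs per 10000 in the P6 controls and at 0, 3.14 and 0.566 in the P10 controls, from 31, 25 and 112 UMIs against 0, 19 and 1. Rarres2 passed the filter on low counts only through the P6 controls, so the filter fixed the lack of overlap between the groups. The log2 difference was -3.75 ± 0.77, a 13.5-fold lower level at P10 (edgeR's quasi-likelihood test with Benjamini-Hochberg adjustment, adjusted p = 0.0367). It was 1 of 236 genes tested, 0.424%, and 0.0% were higher. At unadjusted p under 0.05 there were 41 genes, and DESeq2 called 5, Rarres2, Col1a1, Col1a2, Col3a1 and Sparc, all lower at P10. The call was lost without control P6 library 3 (edgeR adjusted p = 0.160), control P10 library 2 (0.0650) or control P10 library 3 (0.572), with the replicate number as a block (0.105), with no filter on low counts (0.177) and with only the 2 groups compared (0.0710). KO P10 libraries stood at 1.55, 3.34 and 2.58. In fibroblast-marker nuclei Rarres2 stood at 1.01, 0.920 and 1.74 in the P6 controls and at 0.263, 0.687 and 0.337 in the P10 controls, also without overlap, and the difference between the classes in this change was -2.05 ± 0.76 log2 units (edgeR unadjusted p = 0.00707, adjusted p = 1).

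Other epicardial genes with high levels at P6 did not pass edgeR's test with these settings. C3 averaged 19.4 ± 10.7 UMIs per 10000 in the P6 controls, 5.57 ± 5.07 in the P10 controls and 2.19 ± 1.23 in the knockouts (SD, n = 3). The control P6 libraries lay above the P10 control libraries, with a log2 difference of -1.82 ± 0.64 (edgeR adjusted p = 0.143), and C3 was called lower with nuclei of at least 1000 UMIs. Col1a1, a fibrillar collagen gene, stood at 24.8, 32.2 and 40.1 in the P6 controls, 11.4, 14.04 and 5.66 in the P10 controls, and 10.9, 10.6 and 5.16 in the knockouts. These control groups did not overlap either, and the log2 difference was -2.02 ± 0.55 (edgeR adjusted p = 0.109). Col3a1 differed by -1.99 ± 0.61 (0.133), Igfbp5 by -1.69 ± 0.65 (0.188) and Gpc3 by -1.31 ± 0.59 (0.251), and Il18r1 by 1.13 ± 0.61 (0.299), all with edgeR adjusted p in parentheses. Col1a1 was called lower in 5 alternatives and Col3a1 in 6. Of 11 matrix genes tested, none was called by edgeR and 3 had a positive difference, with a median of -1.16 against -0.02 over all 236 genes. The 7 ribosomal protein genes tested had a median of -1.30 and no call. Libraries did not overlap for 46 of 236 genes on the higher side (19.5%) and 25 on the lower side (10.6%).

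Values that moved with age in these nuclei included the makeup of the set itself. The 27 outside markers together stood at 84.5, 65.0 and 145 UMIs per 10000 in the P6 controls and at 17.1, 50.1 and 33.95 in the P10 controls, and the cardiomyocyte markers were the higher in every control P10 library. Ttn stood at 8.86, 53.2 and 13.7 in the P6 controls and at 117, 66.7 and 135 in the P10 controls, a log2 difference of 1.72 ± 0.64 (edgeR adjusted p = 0.187), and in fibroblast-marker nuclei at 39.1, 44.4 and 28.8 and at 128, 77.4 and 140. Among the genes of smallest p, Rora, a nuclear receptor, and Fgf13, Fhod3, Palld and Pde4dip were the higher ones, by 2.05 ± 0.58, 2.04 ± 0.67, 1.53 ± 0.49, 1.91 ± 0.63 and 1.52 ± 0.52 log2 units (edgeR adjusted p from 0.120 to 0.143), and the chaperone gene Hsp90b1 and Rsrp1 were lower, by -1.93 ± 0.51 and -1.84 ± 0.56 (0.109 and 0.133). Xist, the RNA of the inactive X chromosome, stood at 14.8, 19.3 and 17.7 in the P6 controls, 5.72, 0 and 0 in the P10 controls, and 13.99, 0 and 0 in the knockouts, so the libraries differed in sex-linked RNA. The part of the makeup, of cardiomyocyte RNA and of sex-linked RNA in the age differences was not tested. When only nuclei with at least 3 UMIs over the rule genes were kept, 90 genes could be tested, of which Ttn, Palld, Pcdh7 and Sorbs2 were higher (4.44%) and Rarres2, Col3a1 and Xist lower (3.33%) by edgeR.

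For the knockout, the targeted genes were sparse in epicardial nuclei. Esrra, which encodes ERRα, gave 0, 1 and 0 UMIs in the P6 controls, 1, 3 and 0 in the P10 controls, and 0, 0 and 0 in the knockouts. In all other qualifying nuclei Esrra stood at 0.672, 0.766 and 0.564 UMIs per 10000 in the P10 controls and at 0.0920, 0.157 and 0.121 in the knockouts, lower as the labels say. Esrrg, which encodes ERRγ, gave 1, 26 and 18 UMIs in the epicardial nuclei of the P10 control libraries and 8, 2 and 3 in those of KO P10. In the other nuclei it stood at 11.8, 8.19 and 9.88 and at 6.57, 4.00 and 4.52, so RNA of the gene remained. The deleted part of Esrrg is not given in the sources used here, and UMIs outside it check nothing.

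Nppa (4:148000722-148002079), which encodes the atrial natriuretic peptide of stressed and fetal cardiomyocytes, was the only gene that edgeR called between KO P10 and control P10 in epicardial nuclei. Its levels were 2.95, 4.96 and 4.01 UMIs per 10000 in the P6 controls, 0, 4.79 and 0.566 in the P10 controls, and 30.3, 152 and 245 in the knockouts, where it gave 39, 273 and 571 UMIs. All KO P10 libraries lay above all controls, but Nppa passed the filter on low counts only through the knockouts, so the filter fixed that order. The log2 difference was 5.81 ± 0.90 (edgeR's quasi-likelihood test with Benjamini-Hochberg adjustment, adjusted p = 0.00162). This was 1 of 236 genes, 0.424%, with 0.0% lower, 30 genes at unadjusted p under 0.05 and 1 gene by DESeq2. Nppa kept its call in each of the 22 alternatives, with log2 differences of 5.11 to 8.21. Leaving out nuclei over 3000 UMIs gave 5.11.

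Other nuclei of the same libraries held Nppa in like amounts. Fibroblast-marker nuclei had 0.877, 8.92 and 1.12 UMIs per 10000 in the P10 controls and 31.7, 233 and 140 in the knockouts, and all other qualifying nuclei had 29.7, 179 and 121 in the knockouts. The knockout difference was 0.74 ± 0.84 log2 units larger in epicardial than in fibroblast-marker nuclei (edgeR unadjusted p = 0.380, adjusted p = 1). The part of free RNA in the Nppa of epicardial nuclei was not tested.

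**Figure D5:**
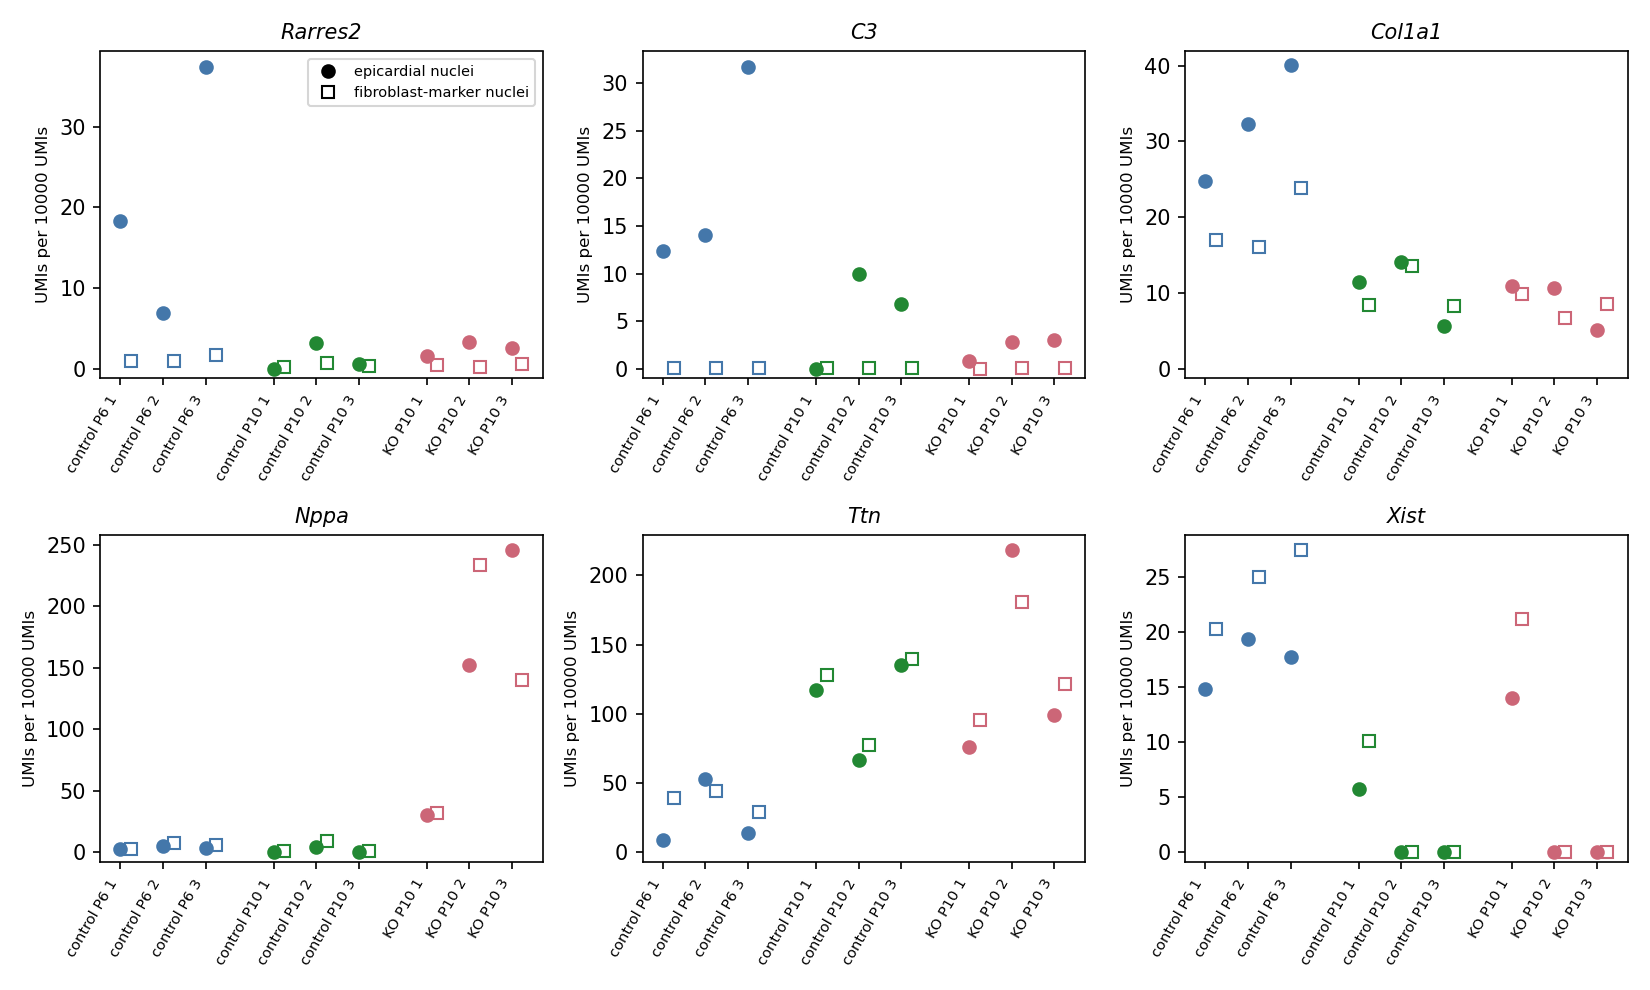
Levels in UMIs per 10000 UMIs of 6 genes in each library, in epicardial nuclei (filled circles) and fibroblast-marker nuclei (open squares), with colours for the 3 groups. Rarres2, C3 and Col1a1 are highest in epicardial nuclei in the P6 controls, and Nppa is high in both classes of all KO P10 libraries; Ttn and Xist show the cardiomyocyte RNA and sex-linked RNA of the libraries.

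No gene of the epicardial and mesothelial lists passed edgeR's test between KO P10 and control P10. C3 was, however, called lower when nuclei of at least 1000 UMIs were kept. Few of these genes could be tested, and over all 236 genes tested 1 was called (0.424%). The filter on low counts left 4 of the 27 outside markers and 1 of 34 adhesion, polarity and keratin genes. It left 3 of 24 transcription factor and transition genes and 1 of 25 complement and inflammation genes. The lack of calls thus does not show that epicardial genes were unchanged. In the knockouts 3 nuclei over 3000 UMIs, with 2, 2 and 3 rule UMIs, gave 47.0% of the epicardial UMIs. In the P10 controls 5 nuclei over 3000 UMIs gave 28.7%. C3 differed by -1.49 ± 0.74 log2 units (edgeR adjusted p = 0.403), Rarres2 by 0.45 ± 0.86 (0.876), Gpc3 by -0.04 ± 0.61 (0.968), Slit3 by -0.09 ± 0.64 (0.948) and Col1a1 by -0.14 ± 0.56 (0.941). Il18r1 stood at 5.72, 10.6 and 14.1 UMIs per 10000 in the P10 controls and at 0, 4.46 and 3.01 in the knockouts. It passed the filter on low counts only through the P10 controls, so the filter fixed the lack of overlap. It differed by -1.90 ± 0.66 (edgeR adjusted p = 0.193). The other genes of smallest p on the lower side were Fgf13, Rapgef2, Erbb4, Ckmt2 and Kcnq1ot1, at -2.04, -4.13, -1.94, -1.87 and -1.44 (edgeR adjusted p of 0.193 or 0.233). On the higher side, the ribosomal protein gene Rps3 differed by 2.05 ± 0.59, the small heat shock gene Cryab by 2.64 ± 0.81, the hemoglobin gene Hbb-bt by 1.96 ± 0.60 and smooth muscle actin, Acta2, by 2.07 ± 0.67 (edgeR adjusted p = 0.193 for each). Hemoglobin and other erythroid genes made up 0.124% to 0.396% of epicardial UMIs in the P10 controls and 0.430% to 1.53% in the knockouts. Libraries did not overlap for 25 of 236 genes on each side, 10.6% and 10.6%.

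The change with age and the change with the knockout were also compared between epicardial and fibroblast-marker nuclei in 1 fit of 7532 genes. No gene differed between the classes in the age change (0.0% called by edgeR's quasi-likelihood test, 280 at unadjusted p under 0.05, none by DESeq2) or in the knockout change (0.0%, 238 and none). For the age change, the smallest adjusted p was 0.266, for the potassium channel gene Kcnd2, at -3.00 ± 0.73 log2 units, and for Lcp1, a leukocyte actin bundling gene, at -5.05 ± 1.27, both by edgeR. The others of smallest p included Adgrl4 and Mmp14 on the lower side and Aspn, Ptn, Sntg1, Polq and Pclaf on the higher side, from an edgeR adjusted p of 0.650 upward. For the knockout change the smallest adjusted p was 0.848, shared by Adgrl4 at 4.73 and Angptl7 at -4.50. The epicardial sums rested on 4 to 49 nuclei per library.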

How the data were processed

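Single-nucleus RNA was measured by Drop-seq in 9 libraries of mouse ventricles. The authors deposited 1 table of UMI counts per gene and barcode for each library, whole numbers with no normalization, named as exonic and intronic counts; STAR 2.5.2a and mm10 are named in the submitters' processing notes. The labels put each library in its group. Counts were summed per library over epicardial nuclei and over fibroblast-marker nuclei and tested with edgeR 4.0.16 (quasi-likelihood test, TMM factors, filterByExpr with a minimum count of 10, Benjamini-Hochberg adjustment, threshold 0.05), all 9 libraries in 1 fit; DESeq2 1.42.0 was an alternative. The 9 epicardial and 4 endothelial genes of the rule, Malat1 and mt- genes were not tested, nor were the 7 fibroblast-marker genes where the classes were compared. Libraries summed 3499 to 60531 UMIs of epicardial nuclei, so 3 UMIs, the floor of detection, correspond to 0.496 to 8.57 per 10000. Shares were compared by exact permutation over libraries. Candidate doublets are the 5% of nuclei with the highest Scrublet scores in each library; they were kept, and left out as an alternative. The fits were tested on simulated data. Gene positions are from GENCODE vM21.

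Named are, per comparison, the 12 largest called differences in each direction without overlap between libraries (with fibroblast-marker nuclei, in at least 8 of 9 libraries), every called list gene, the 6 genes of smallest p in a direction with under 5 calls, the rule genes and markers, Esrra and Esrrg, and 5 genes per direction for differences between classes. A few genes that meet this rule are not reported here. The members and lists were chosen with earlier results of these data known.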

Additional observations from a re-analysis of the deposited data

How the results depend on the processing

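The sums of epicardial nuclei are small, and the counts of called genes move with the settings. For P10 against P6, 1 gene was called, against 7 with at least 3 UMIs over the rule genes, 0 without Wt1 in the rule, 2 with no Malat1 minimum or one of 3%, 7 with at least 1000 UMIs, 9 with at most 3000 UMIs (chosen after seeing the data), 5 by DESeq2, 3 with a filter of 20 UMIs, and 0 to 24 without single libraries (24 without control P6 library 2). For KO P10 against control P10, 1 gene was called, against 4 with at least 1000 UMIs, 2 with at most 3000, 2 with no filter, 4 with a filter of 20 UMIs, and 1 to 3 without single libraries. Against fibroblast-marker nuclei, 219 genes were called, against 505 with at least 3 UMIs over the rule genes, 49 with at least 1000 UMIs, 345 with at most 3000, 866 with all other nuclei for comparison, 951 with no filter and 1246 with a filter of 20 UMIs; without single libraries 156 to 242 were called. The age difference between classes counted 1 gene with at least 8 fibroblast-marker UMIs, at most 3000 UMIs or RLE factors, and 0 to 1 without single libraries (1 without control P10 library 2). The KO share difference of -0.180 points ranged from -0.383 to 0.195 without single libraries, and turned direction without control P10 library 2. The causes were not tested, apart from the number of genes and nuclei each setting leaves.

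Same-numbered libraries did not deviate together (correlations of -0.184 to 0.172 over 236 genes). With the replicate number as a block, 0 genes were called for age and 1 for the knockout, and the paired share tests gave p = 0.5 and p = 1 (exact). Of single named genes, none turned direction; against fibroblast-marker nuclei 172 values over the alternatives lost a call, for age 6 lost and 29 gained one, and for the knockout 2 gained one.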
